A study of Drosophila melanogaster with 2 samples.

Results

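Small nucleolar RNAs (snoRNAs) are short noncoding RNAs that sit in the nucleolus and direct enzymes to chosen bases of other RNAs. The snoRNA genes described here are the 269 genes that the annotation of the fly genome build dm6 classes as snoRNA on the 6 main chromosome arms, out of 18164 genes there. They were chosen by that class alone, and 247 of them lie wholly inside a longer gene on the same strand, called the host. The hosts number 92, of which 82 code for proteins and 10 are noncoding, and 22 snoRNAs have no host. Peaks were counted for a host where a summit lay within 500 bp of one of its annotated start sites, and apart from these for the snoRNA itself where a summit lay within 500 bp of it.

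The data are chromatin immunoprecipitation followed by sequencing (ChIP-seq) of the transcription factor Snail, a zinc-finger protein that represses genes in the mesoderm of the fly embryo. Whole Drosophila melanogaster embryos of strain sna-GFP, aged 0 to 24 h, carried a fusion of Snail to the green fluorescent protein variant eGFP from a transgene that the labels tie to sna, and the precipitation used an antibody against GFP. There were 2 biological replicates of this 1 group. The labels differ on the antibody, with sna in 1 field and GFP in another. Which promoter drives the fusion is not stated in those labels. No control sample was used here, so signal from the tagged protein and background signal cannot be told apart. The embryos mix all cell types and stages, so a peak present in few cells and a weak peak in many cannot be told apart either. The files give no read counts, so the depth of each replicate is unknown.

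Most fly snoRNAs are cut out of the introns of a host transcript, so the promoter of the host sets where transcription of the snoRNA begins. Box C/D snoRNAs guide the methylation of ribose and box H/ACA snoRNAs guide the change of uridine to pseudouridine, mostly in ribosomal RNA, and related small Cajal body RNAs guide both changes in spliceosomal RNAs. Many hosts encode ribosomal proteins or other parts of the translation machinery, and the genes named Uhg (U snoRNA host gene) make noncoding transcripts known for the snoRNAs in their introns. In flies many housekeeping promoters carry the DNA replication-related element, TATCGATA, to which the factor DREF binds, and ribosomal protein genes often begin at a pyrimidine-rich TCT initiator. Snail itself is known to bind the sequence CAGGTG.

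Of the 269 snoRNAs, 106 carry symbols of pseudouridylation guides, 77 of methylation guides, 16 of Cajal body RNAs, 13 of orphan box C/D RNAs and 8 of orphan box H/ACA RNAs. The U3 RNA, which acts in the cutting of the ribosomal RNA precursor, has 3 genes, and 46 carry other names. Their lengths run from 46 to 316 bp with a median of 134 bp. Of the hosted snoRNAs, 227 lie outside every exon of the host and 20 overlap one. They begin a median of 1465 bp downstream of the nearest upstream start of the host (quartiles 778 and 2764 bp), so that a peak at the host promoter is in most cases not a peak at the snoRNA.

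The sequences under the strongest promoter peaks show what many of them share. Each of the following is the 201 bases around the summit of the strongest peak at a host start, on dm6 (Release 6), read 5′ to 3′ on the strand of the host, with CGATA or its reverse complement TATCG in capitals. They were chosen to show 3 ribosomal protein hosts, 1 noncoding host and 1 other coding host. RpS7 is at chr3R:30209015-30209215, Uhg2 at chr2L:9895081-9895281, kis at chr2L:250835-251035, RpL28 at chr3L:3223024-3223224 and RpS12 at chr3L:13023126-13023326. RpS12 is read on the plus strand and the other 4 on the minus strand.
RpS7: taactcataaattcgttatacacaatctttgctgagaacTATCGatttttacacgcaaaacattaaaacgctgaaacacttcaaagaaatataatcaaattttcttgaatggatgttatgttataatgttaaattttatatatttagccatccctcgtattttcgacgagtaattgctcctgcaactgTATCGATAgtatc
Uhg2: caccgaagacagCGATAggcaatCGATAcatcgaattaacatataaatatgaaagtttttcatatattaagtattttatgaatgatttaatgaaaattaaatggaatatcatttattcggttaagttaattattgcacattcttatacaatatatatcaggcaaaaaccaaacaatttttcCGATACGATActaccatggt
kis: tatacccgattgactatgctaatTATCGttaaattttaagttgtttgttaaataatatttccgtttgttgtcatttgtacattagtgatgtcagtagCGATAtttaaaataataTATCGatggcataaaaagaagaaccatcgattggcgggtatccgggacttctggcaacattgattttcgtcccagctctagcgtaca
RpL28: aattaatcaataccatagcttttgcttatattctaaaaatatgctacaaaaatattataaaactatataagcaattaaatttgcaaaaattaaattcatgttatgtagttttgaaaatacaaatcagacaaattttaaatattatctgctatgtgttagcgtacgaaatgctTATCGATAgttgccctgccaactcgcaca
RpS12: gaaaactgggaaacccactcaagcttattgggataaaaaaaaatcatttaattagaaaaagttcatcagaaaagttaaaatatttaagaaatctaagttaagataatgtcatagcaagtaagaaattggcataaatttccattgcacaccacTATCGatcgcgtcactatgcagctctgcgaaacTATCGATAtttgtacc

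In the 3 ribosomal protein windows the full 8 bases TATCGATA stand near the downstream end, on the side of the start site. The windows of Uhg2 and kis hold CGATA 3 or more times, without the full element. The short stretches below run 10 bases to each side of the canonical start of 4 ribosomal protein hosts, with a CTTTC or CTTTT on the sense strand in capitals. They are examples of this match, which 16 of the 27 ribosomal protein hosts have. The match could lie anywhere in the stretch, so it does not by itself mark a TCT initiator. RpS7 is read on the minus strand at chr3R:30208932-30208952, RpL28 on the minus strand at chr3L:3222948-3222968, RpL14 on the plus strand at chr3L:8600996-8601016 and RpL13A on the plus strand at chr3R:5624464-5624484.
RpS7: gctcgacttcCTTTCctgtca
RpL28: ggctgccatatttCTTTCctt
RpL14: aaaaaagttCTTTCcttctct
RpL13A: cgcaacttccgccttCTTTCc

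The last pair of sequences lies beside snoRNAs that have no host. They are the 201 bases around a summit, read on the strand of the snoRNA, at chrX:5524403-5524603 (minus strand) for Psi28S-3342 and at chr3L:1488656-1488856 (plus strand) for Psi28S-2622, both guides for pseudouridines of the 28S ribosomal RNA. Capitals mark GGTTCGA, the core of the B box that RNA polymerase III genes such as tRNA genes carry.
Psi28S-3342: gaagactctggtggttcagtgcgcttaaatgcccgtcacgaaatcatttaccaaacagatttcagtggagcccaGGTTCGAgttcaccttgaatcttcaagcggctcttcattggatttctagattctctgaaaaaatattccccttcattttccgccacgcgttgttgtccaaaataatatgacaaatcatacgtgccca
Psi28S-2622: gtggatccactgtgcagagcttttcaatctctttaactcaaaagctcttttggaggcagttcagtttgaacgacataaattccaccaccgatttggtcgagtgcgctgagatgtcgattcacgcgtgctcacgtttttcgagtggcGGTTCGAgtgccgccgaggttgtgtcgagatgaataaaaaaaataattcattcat

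Peaks stood at the start sites of 50 of the 92 hosts, which is 54.3% (95% Wilson interval 44.2 to 64.1, counting error only). These hosts hold 135 of the 247 hosted snoRNAs. The list used was the pooled list, made from the pooled replicates, with 4221 peaks on the 6 arms. The authors kept it at an irreproducible discovery rate (IDR, the share of peaks expected not to repeat) of 0.01. A separate list was made from the pair of replicates, so a place in the pooled list does not by itself show that a peak repeats between the 2. In the pooled list 27.5% of 13945 coding genes had a summit that near to a start. Genes with more annotated starts had a peak more often. Coding hosts with 1 start had a peak in 44.7% of 38 against 23.2% of all coding genes with 1 start, those with 2 or 3 starts in 60.6% of 33 against 37.3%, and those with 4 or more in 81.8% of 11 against 54.5%. The share of hosts was above that of coding genes at each number of starts. With 1 group of 2 replicates no test over samples is possible, and none over genes was made, so these shares are descriptions of 1 peak list.

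In the list called on replicate 1 alone, 39 hosts (42.4%) had a summit at a start, against 21.7% of coding genes. In the list of replicate 2 alone it was 32 hosts (34.8%), against 16.8%. The list made from the replicate pair had a summit at 42 hosts (45.7%), against 25.3% of coding genes, and 40 of these hosts were among the 50. None of the hosts (0) had a peak in a replicate's own list without one in the pooled list. Of the 50 hosts, 30 (60.0%) were in both replicates' own lists and 9 in neither, while 53.0% of the coding genes with a peak were in both.

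By kind of host, 33 of 55 other coding hosts (60.0%), 13 of 27 ribosomal protein hosts (48.1%, Wilson interval 30.7 to 66.0) and 4 of 10 noncoding hosts (interval 16.8 to 68.7%) had a peak. The ribosomal protein genes that hold no snoRNA had one in 55% (33 of 60). The interval of the ribosomal protein hosts covers that share, so a difference between ribosomal protein genes with and without a snoRNA was not detectable with so few genes. In the own list of replicate 2, without replicate 1, 6 of the ribosomal protein hosts and 1 of the noncoding hosts had a peak, and in that of replicate 1 it was 10 and 3. Among all 3261 noncoding genes of the same annotation class 5.34% had a summit at a start. The bar plot of these shares shows the hosts of each kind beside their background.

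**Figure D1:**
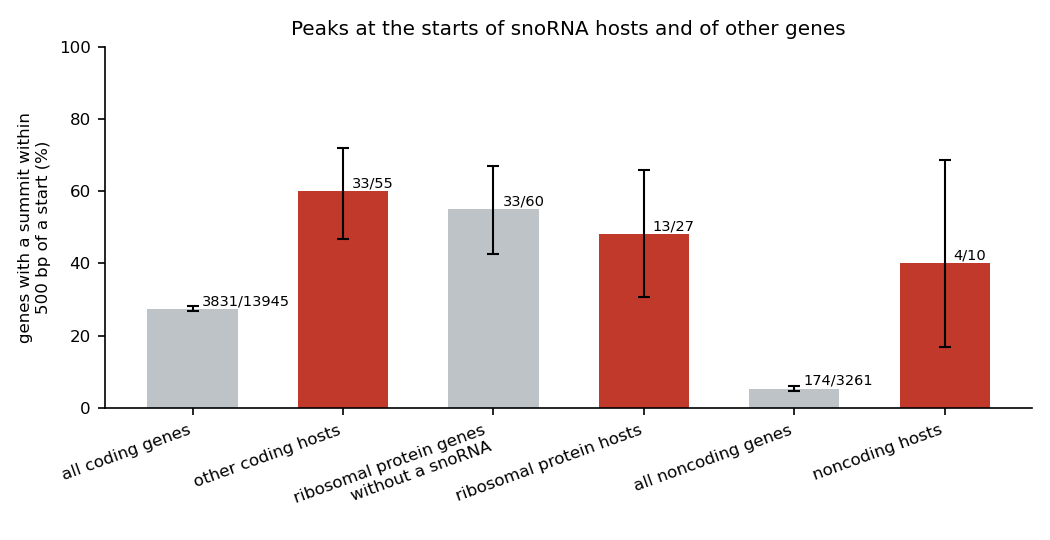
Share of genes (vertical axis, percent) with a pooled-list summit within 500 bp of a start, for snoRNA hosts (red) and for the genes each kind is set beside (grey); error bars are 95% Wilson intervals and the fractions give the genes. Other coding hosts (33 of 55) and noncoding hosts (4 of 10) stand above their backgrounds of 27.5% and 5.34%, which are not matched by number of starts. Of the 4 noncoding hosts, 1 had its strongest summit nearest to its own start. The interval of ribosomal protein hosts (13 of 27) covers the 55% of ribosomal protein genes without a snoRNA. In the list of replicate 2 alone the counts for ribosomal protein and noncoding hosts were 6 and 1.

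The ribosomal protein host with the strongest peak was RpS7, which encodes a protein of the small ribosomal subunit and holds 7 pseudouridylation guides. Its peak lay on 3R from 30208903 to 30209294 with the summit 95 bp upstream of a start. The authors' signal value was 284 in the candidate list of replicate 1, 220 in that of replicate 2 and 526 in the pooled list. Signal values have no stated scale, and so are ranked only within a list. RpS29 followed with 148 and 144 in the replicates and 284 pooled, and its summit lay 19 bp upstream. Both stood in each replicate's own thresholded list. The other 11 ribosomal protein hosts with a peak ranged from 73.0 (RpL10Ab) to 167 (RpL28) in the pooled list, and the median of all 13 was 113. All 13 summits lay upstream of the nearest start of the host, at a median of 86 bp, and for 11 of them that host start was the nearest annotated start of any gene.

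The ribosomal protein hosts with a peak included RpS5a, which holds 14 snoRNAs, more than any other gene of that kind. Its signal was 78.6 in replicate 1, 63.5 in replicate 2 and 134 pooled. Each of these values was in the thresholded list of its kind. RpS3A, the only host on chromosome 4, had no peak and a pooled candidate of 52.1.

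RpL13A stands apart from the other hosts without a peak. A pooled candidate region at its start, on 3R from 5624070 to 5624384, had a signal of 420, with 247 in replicate 1 and 158 in replicate 2. That signal equals or exceeds 96.6% of the promoter peaks, and its −log10 IDR of 5 is the highest the list gives, yet the region is not in the authors' thresholded list nor in either replicate's own. On the 6 arms 139 of 4360 candidates that meet the IDR limit are likewise missing from it, and RpL13A holds the sixth rank by signal (6) among them. No source used here gives the reason. Counting such candidates adds RpL13A and no other host, for 51 of 92.

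Among the noncoding hosts Uhg2, with 4 snoRNAs, had the strongest peak. Its signal was 274 in replicate 1, 234 in replicate 2 and 508 pooled, with the summit on 2L at 9895181, 178 bp upstream of the Uhg2 start and 106 bp from the start of Bka, a coding neighbour. The strongest peaks at Uhg1 and Uhg8 likewise lay nearest to another gene. At Uhg8, with 3 snoRNAs, the summit lay 393 bp upstream of the host and 36 bp from the start of CG5199, with signals of 83.9 in replicate 1, 42.9 in replicate 2 and 127 pooled.

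Uhg1, which holds 16 snoRNAs, had a pair of summits. The stronger, with a pooled signal of 139, lay 496 bp upstream and nearest to rdgBbeta, and the other, with 101, lay 65 bp upstream and nearest to Uhg1 itself. The strongest candidate at its start had 35.1 in replicate 1 and 54.6 in replicate 2, and neither replicate's own list held a peak there. Uhg5, with 11 snoRNAs, had its stronger summit 54 bp upstream of its own start. The signals were 38.8 in replicate 1, 16.6 in replicate 2 and 58.2 pooled, the lowest among the strongest peaks of the 50 hosts. Where a summit is counted for the nearest start only, a rule added after the data were seen, 2 noncoding hosts keep a peak.

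The other 6 noncoding hosts had no peak. Their strongest pooled candidates were 51.5 at Uhg7 (4 snoRNAs), 48.5 at lncRNA:CR42491 (1), 29.6 at Uhg3 (3), 23.8 at lncRNA:CR45184 (5), 6.64 at Uhg4 (7) and 3.70 at lncRNA:CR31647 (1). All 6 lie below the lowest of the strongest peaks of the hosts that had one. Uhg3 had 26.5 in replicate 1 and 3.37 in replicate 2, the lowest replicate 2 value in the plot of candidates by replicate.

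The strongest peak at any host stood at hts, which encodes the fly adducin, a protein of the membrane skeleton, and holds 1 snoRNA. It reached 465 in replicate 1, 251 in replicate 2 and 704 pooled, 81 bp upstream of a start. The peak of kis, which encodes a chromatin remodeller of the CHD family, had 255 in replicate 1, 155 in replicate 2 and 407 pooled. In drn it was 204 in replicate 1, 153 in replicate 2 and 341 pooled. With RpS7 and Uhg2 these are among the 6 hosts whose peak fell in the strongest 10% of promoter peaks.

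Behind these came Tudor-SN (277 pooled), which encodes a nuclease of small-RNA pathways, lds (275), the lodestar helicase-like ATPase, Irbp (261), the fly Ku70 protein of DNA repair, tra2 (207), a splicing regulator of sex determination, and Prp8 (183), a core protein of the spliceosome. The Irbp peak lay nearest to its neighbour mgr. All 5 were in both replicates' own lists.

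The host peaks as a whole were of ordinary strength. Their median pooled signal was 121, at percentile 52.9 of the 3465 promoter peaks, and 27 of the 50 were at or above the median of promoter peaks, 116. Coding genes with a peak had a median strongest signal of 139, at percentile 60.9. Ranked by its strongest peak, none of the 50 hosts (0) fell in the weakest 10% of promoter peaks. Weaker further peaks stood at some of these hosts, down to 9.23 at tra2. The signals of the replicates ran in a similar order over hosts, with a Spearman rho of 0.80 over the 50 hosts with a peak and 0.83 over the 84 with a candidate in both. This is a description across hosts that share the same libraries, and the first set was chosen on the pooled signal.

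**Figure D2:**
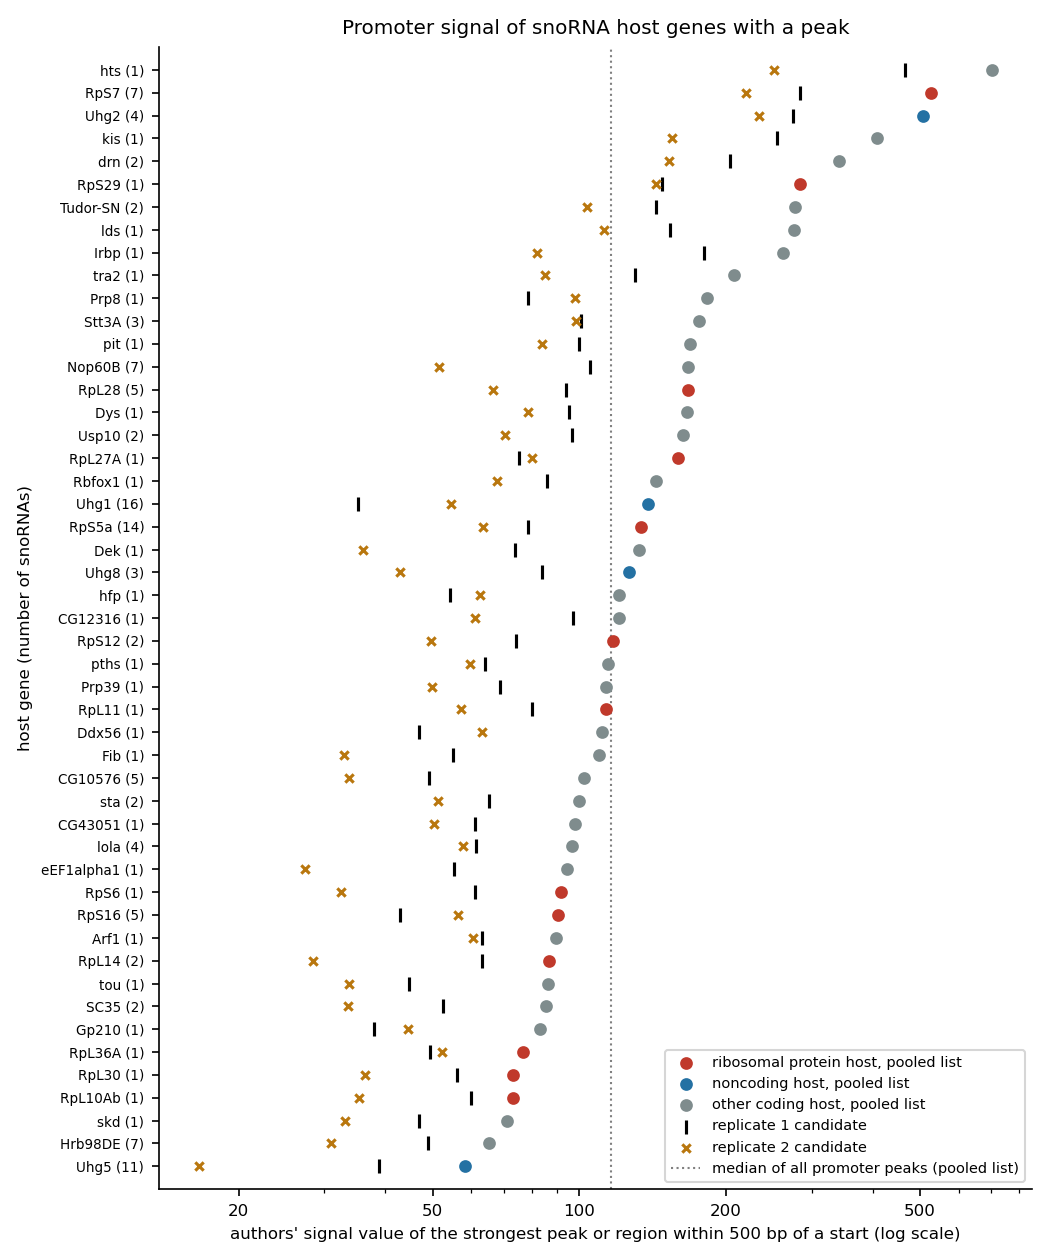
The authors' signal value (horizontal axis, log scale) at the 50 hosts with a peak, all but 1 of them shown, ordered by the pooled list (circles, coloured by kind of host), with the strongest candidate of replicate 1 (bars) and replicate 2 (crosses) and the median of all promoter peaks (dotted line); numbers of snoRNAs stand after each name. Values run from 58.2 at Uhg5 to 704 at hts, and 27 of the 50, with the 1 not shown, lie at or above the dotted line.

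**Figure D3:**
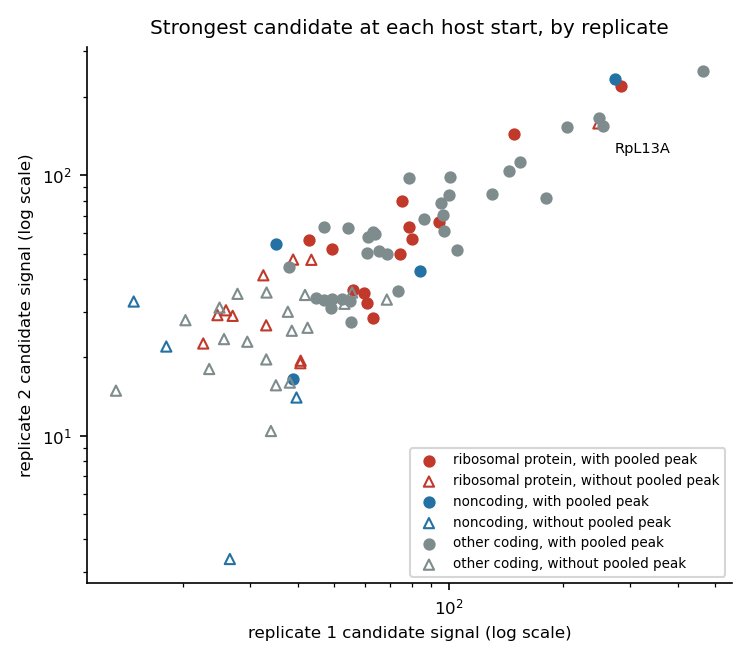
Strongest candidate signal at each host start in replicate 1 (horizontal axis) and replicate 2 (vertical axis), both on log scales, for the 84 hosts with a candidate in both; filled circles have a pooled peak and open triangles have none. RpL13A, at 247 and 158, is the open triangle among the strongest hosts.

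Many snoRNAs sit in few hosts, and hosts with many snoRNAs had a peak or not without a clear pattern. Arpc2, which encodes a subunit of the actin-nucleating Arp2/3 complex, holds 17 snoRNAs, all pseudouridylation guides. It had no peak, with candidates of 27.8 in replicate 1, 35.1 in replicate 2 and 67.3 pooled. The chromatin remodeller gene dom holds 15 snoRNAs and had none either, with 37.7, 29.9 and 71.2. Uhg1 (16 snoRNAs), RpS5a (14) and Uhg5 (11) had one. Of the 14 hosts with 5 or more snoRNAs 9 had a peak (64.3%, Wilson interval 38.8 to 83.7), of the 23 with 2 to 4 it was 11 (47.8%) and of the 55 with a single snoRNA it was 30 (54.5%). These shares lie within each other's intervals.

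The same concentration shows by class of snoRNA. Of the 101 hosted pseudouridylation guides, 42 (41.6%) had a host with a peak, and of the 74 hosted methylation guides 42 (56.8%). Counted by distinct host, it was 12 of 27 and 20 of 34. The 17 guides of Arpc2 and the 12 of dom are among the pseudouridylation guides without one. Of the hosted Cajal body RNAs 9 of 14 had a host with a peak, and of the hosted orphan RNAs 7 of 11 of the box C/D kind and 2 of 4 of the box H/ACA kind. Of those with other names it was 33 of 43. SnoRNAs of 1 host share its promoter and are not independent.

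Of the 42 hosts without a peak, 38 had a pooled candidate region, with a median signal of 52.2. RpL4, RpL15, CG3902 and nop5 had none. Apart from RpL13A, none of these candidates reached the median of promoter peaks. At the edge of the window, the summits of Stt3A (400 bp from a start), an oligosaccharyltransferase subunit gene, and RpL27A (489 bp) were counted, and those nearest to mask (526 bp) and CG3902 (603 bp) were not.

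The host summits lay mostly just upstream of the start. For 43 of the 50 hosts the summit of the strongest peak was upstream, at a median of −86.5 bp (quartiles −160 and −20.2 bp), against −62 bp for coding genes with a peak. The start of the host was the nearest of any gene for 40 of the 50 (80.0%), against 72.4% of the coding genes with a peak. Distance was measured to the nearest of all annotated starts of the host, and starts of snoRNAs were left out of the nearest genes.

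**Figure D4:**
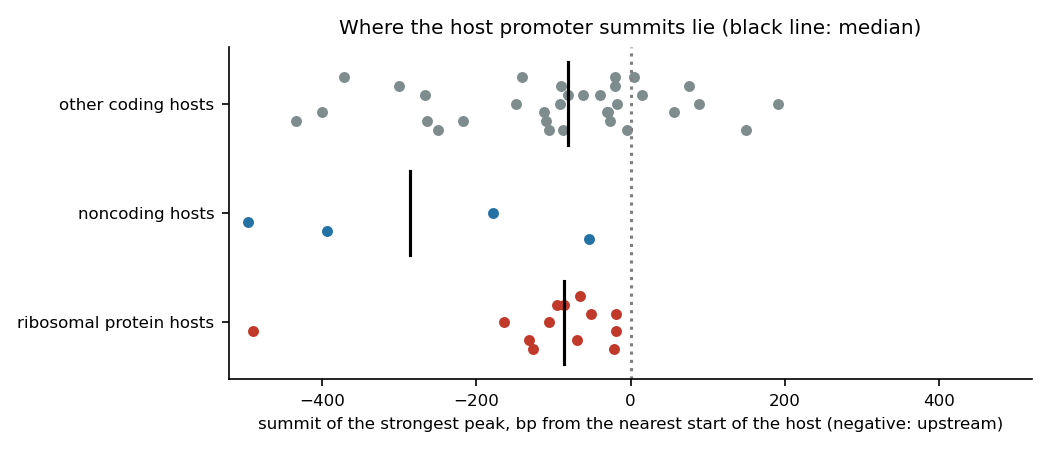
Position of the strongest summit at each of the 50 hosts, in bp from the nearest start of the host (horizontal axis, negative upstream), by kind of host, with the median as a black line. All 13 ribosomal protein and all 4 noncoding summits lie upstream, as do 26 of the 33 at other coding hosts.

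CGATA, the core of the DNA replication-related element, stood under most host peaks, as under most promoter peaks. It stood within 100 bp of the summit, on either strand, in 47 of 69 distinct host promoter peaks (68.1%), against 60.9% of the 3465 promoter peaks. The order turned in the own list of replicate 2, with 69.2% of host peaks against 69.9%, and in that of replicate 1 the shares were 73.6% and 71.0%. Taking the strongest peak of each host, 12 of 13 ribosomal protein hosts, 4 of 4 noncoding hosts and 21 of 33 other coding hosts had it. The 60.9% covers all promoter peaks and not the strongest of each gene, so it is not a like measure to these counts. Among promoter peaks at or above the median signal the share was 78.5%. The full element TATCGATA, which contains CGATA and reads the same on both strands, stood in 22 of 69 (31.9%) against 20.4%. It was searched after the sequences had been seen. Among the strongest peaks of ribosomal protein hosts 8 of 13 held it, as the RpS7, RpL28 and RpS12 windows printed above do.

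The Snail sequence CAGGTG stood in 6 of 69 host promoter peaks (8.70%), against 6.29% of promoter peaks. Among the strongest peaks it was found at lds and RpL27A only. Another E-box, CACGTG, stood in 4 (5.80%, against 3.38%), and CAGCTG in 4 (5.80%, against 18.1%). GAGAG stood in 17 (24.6%, against 25.4%) and GGTCACAC, the core of a common fly promoter motif, in 3 (4.35%, against 5.89%). All were searched on both strands, and a match describes the letters only.

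At the start sites themselves, CTTTC or CTTTT stood within 10 bp of the canonical start, on the sense strand, in 16 of 27 ribosomal protein hosts (59.3%), against 5.48% of coding genes. It stood in 32 of 60 ribosomal protein genes without a snoRNA (53.3%), in 3 of 10 noncoding hosts and in 6 of 55 other coding hosts. RpL13A, which had no listed peak, has it too.

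Beside the snoRNA itself, apart from the host starts, 6 of the 269 genes (2.23%) had a summit within 500 bp. As a background, 3.11% of positions on the 6 arms would put a snoRNA of median length that near a summit of any kind. That background includes summits at start sites, so it is not a like measure to the 2.23%. For 11 more snoRNAs a peak counted for the host start also lay within 500 bp of the snoRNA. With these, 17 of the 269 had a summit of any kind that near, which is the count to set beside the 3.11%. Some summits counted for a host start lay inside a snoRNA. At Me28S-A1322 the summit was 408 bp from the nearest start of its host eEF1alpha1, with a pooled signal of 91.0. Inside Me18S-C1366 lay the weaker summit of its host Uhg5, 225 bp from the start, with 24.1. Of the 6, 4 are among the 22 snoRNAs without a host and 2 among the 247 with one.

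The strongest was at Psi18S-176, a guide for a pseudouridine of the 18S ribosomal RNA, with a signal of 205 in replicate 1, 132 in replicate 2 and 319 pooled, and the summit 52 bp upstream of its 5′ end on 2R at 23840116. The nearest start of a gene other than a snoRNA, lncRNA:CR44805, lay 461 bp from that summit. At U3:54Ab, 1 of the 3 U3 genes, the signals were 120, 90.8 and 213, in the same order, and the summit lay 221 bp upstream and 96 bp from tRNA:Leu-AAG-1-3. At Psi28S-3342 they were 110, 87.6 and 197, and the summit lay 38 bp upstream, 7003 bp from the nearest start of a gene of another class. All 3 were in both replicates' own lists.

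At Psi28S-2622 the signals were 61.7 in replicate 1, 46.6 in replicate 2 and 77.1 pooled, and the summit, 150 bp upstream, was 17 bp from sncRNA:CR43701, a small noncoding gene. The own list of replicate 1 and the list made from the replicate pair held it too, and the own list of replicate 2 did not. The hosted CG31191-a had its summit inside the snoRNA, 85 bp from its 5′ end and 32736 bp from the host start, with 47.1 in replicate 1, 47.7 in replicate 2 and 94.2 pooled, and neither replicate's own list held it. The summit at the hosted hts-a, with 50.2, 66.1 and 89.5, lay 158 bp upstream of the snoRNA and 50 bp from tRNA:Ser-CGA-1-4, and both replicates' lists held it.

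**Figure D5:**
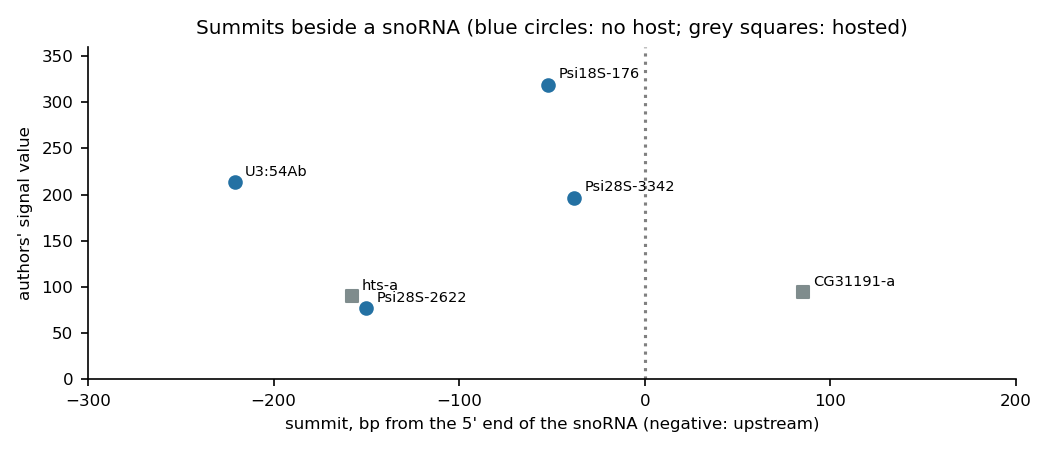
Position (horizontal axis, bp from the 5′ end of the snoRNA, negative upstream) and pooled signal (vertical axis, the authors' value) of the 6 summits within 500 bp of a snoRNA and apart from host starts; circles have no host and squares have one. Psi18S-176 and Psi28S-3342 have their summits 52 and 38 bp upstream, and CG31191-a has its summit inside the snoRNA.

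GGTTCGA, searched after the sequences had been seen, stood within 100 bp of 4 of these 6 summits. It stood near 2.44% of all 4221 summits and near 40.7% of the 91 summits within 500 bp of a tRNA gene. At U3:54Ab and hts-a the match lay inside the neighbouring tRNA gene and on its strand. At Psi28S-3342 it lay 58 bp upstream of the snoRNA, and at Psi28S-2622 it lay 98 bp upstream, both on the strand of the snoRNA and in no annotated tRNA gene. Overlap with genes of other classes was not checked, and sncRNA:CR43701 starts 17 bp from the summit at Psi28S-2622. Of all 290 tRNA genes 42.1% had a summit within 500 bp.

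The other 18 snoRNAs without a host had no peak in the pooled list. Of these, 9 had a pooled candidate region within 500 bp, with signals from 9.21 to 114, and 9 had none. The highest was at snoRNA:185, whose −log10 IDR of 3.73 meets the limit although the region is not in the pooled thresholded list, as at RpL13A. The next was Me18S-A1806, a methylation guide, with 66.4 and a −log10 IDR of 1.82, below the limit of 2, and the own list of replicate 1 held a peak of 58.5 there. The U3 genes differed among themselves, with 213 at U3:54Ab, a candidate of 41.2 at U3:54Aa and none at U3:9B.

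Genes for proteins of the snoRNA particles were set beside the snoRNA genes. Of 14 listed symbols 13 matched, and 6 of these (46.2%) had a summit at a start, against 27.5% of coding genes. In the box C/D particle, Fib, the methyltransferase, had a peak of 110 and Nop56, a core protein, one of 83.2, whereas nop5, the other core protein of that family, had no candidate and hoip, which binds the RNA kink, a candidate of 16.8. In the box H/ACA particle, Nop60B, the pseudouridine synthase, had 167 and Gar1 had 93.6, whereas Nop10 and NHP2 had candidates of 62.2 and 44.6.

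Of the assembly factors, Nufip had a peak of 168, pont a candidate of 58.6 and rept none. Of the proteins of nucleolus and Cajal body, coil, which encodes coilin, had 127, and Nopp140 a candidate of 53.8. Fib, nop5 and Nop60B are hosts of snoRNAs as well. The summit at Nop60B lay nearest to mRpS17, that at Nop56 to mats, that at Nufip to Atg3 and that at coil to Socs44A, so that only the peaks at Fib and Gar1 were nearest to the gene itself. Neither replicate's own list held the peaks at Fib, Gar1 and Nop56, whereas both lists held those at Nop60B, Nufip and coil.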

How the data were processed

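ChIP-seq peak lists of 2 biological replicates of 1 group were analysed. Fragments were sonicated to a range of 200 to 800 bp, per the labels. The deposited lists give a signal value per peak, the authors' own enrichment value with no stated scale, and ranked lists give the IDR on the authors' −log10 scale, deposited with a limit of 2 for thresholded lists. Per the labels the build is dm6. The sources used here name neither the aligner nor the peak caller. The per-replicate columns of the ranked list of the replicate pair were not used.

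Gene models came from Ensembl release 115 and sequence from the NCBI copy of Release 6. A snoRNA was given to the shortest longer gene on its strand that holds it whole, and 12 had a choice of 2. Classes of snoRNA follow symbols, and ribosomal protein genes were taken by symbol, so sta counts as other coding. Promoter peaks have a summit within 500 bp of any start of a coding gene, a noncoding (ncRNA) gene or a pseudogene. Starts of small RNA genes, such as tRNA and snoRNA genes, were left out. Percentiles are ranks of signal among promoter peaks. A replicate's candidate is its strongest ranked region within the same window. Motifs were searched within 100 bp of the summit. No statistical test was made, and precision is limited by the 2 replicates. Intervals are 95% Wilson intervals. The counting was tested on simulated data. Python 3.11.15, numpy 2.4.6, pandas 2.3.3, scipy 1.17.1 and matplotlib 3.10.9 were used.

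The members, lists and motifs were chosen with earlier results of these data known. Named are all noncoding hosts, the 12 hosts with the strongest peak, of which 1 is not reported here, the 5 with most snoRNAs, all snoRNAs with a summit beside them, the particle proteins and the hosts just inside and outside the window. Other names, among them RpL13A, RpL10Ab, RpL28, RpS3A, RpL4, RpL15, snoRNA:185, Me18S-A1806, U3:54Aa, U3:9B, the printed sequences of RpS12 and RpL14 and the nearest neighbours, were chosen after their values were seen. Alternatives were the replicate-pair list, each replicate's own list, only peaks no weaker than the median, windows of 250 and 1000 bp, the longest gene as host, and overlapping peaks merged. Counting all candidates at the IDR limit, and counting a summit for the nearest start only, were added after seeing the data.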

Additional observations from a re-analysis of the deposited data

How the results depend on the processing

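Of 76 recomputed values, 19 moved beyond their tolerance and 57 stayed within it. The tolerance was 1.5 times for counts, the spread between replicates for the median percentile and the exact 95% binomial interval for CGATA. Hosts with a promoter peak numbered 50, 32 among peaks at or above the median signal, where 18.4% of coding genes had one, and 32 to 39 in the own list of 1 replicate. Their hosted snoRNAs numbered 135, then 87, and 70 in the list of replicate 2. Ribosomal protein hosts went from 13 to 7 and 6 under the same settings. Noncoding hosts went from 4 to 1 in the list of replicate 2 and to 2 where a summit counts for the nearest start only, a setting chosen after seeing the data. Summits beside the snoRNA itself went from 6 to 3 among the peaks at or above the median and to 14 with a window of 1000 bp. The median percentile of the host peaks, 52.9, was 54.6 in the replicate-pair list, 44.6 among peaks at or above the median signal and 48.5 to 49.6 in the own lists. It was 46.2 and 57.3 with windows of 250 and 1000 bp and 45.8 with overlapping peaks merged, so it lay on either side of 50. As each host was ranked by its strongest peak, 50 is not the value to expect. Coding genes with a peak, ranked the same way in the main setting, had 60.9. CGATA stood in 79.2% of host promoter peaks in the replicate-pair list, against 63.6% of promoter peaks, and in 80.6% of those at or above the median signal, against 78.5%, but in 69.2% against 69.9% in the own list of replicate 2 and 73.6% against 71.0% in that of replicate 1. The cause of these shifts was not tested, beyond the shorter lists. The candidates at the IDR limit, chosen after seeing the data, gave 51 hosts. No paired analysis was possible because there is only 1 group. Without read counts the depth behind a missing peak is unknown.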
